A study of Homo sapiens with 15 samples.

Results

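MRC5 fibroblasts that shared medium for a week with H69, a neuroendocrine (NE) small cell lung cancer (SCLC) line, were compared with MRC5 fibroblasts grown alone. The comparison took the 3 libraries of MRC5_coH69 and the 3 of MRC5_Mo, which are 6 of the 15 libraries of the series, and it covered the 12819 genes tested of 16382 listed. The study asked how SCLC cells of different subtype educate fibroblasts towards cancer-associated fibroblasts (CAFs), the fibroblasts found within tumors. It also sequenced MRC5 cells grown with the non-NE line H196 (MRC5_coH196), used here only where the H69 response is set beside it, and H196 cells, which are not used here.

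MRC5 is a line of human fetal lung fibroblasts, and every library compared came from this 1 line, with no gene edited and no agent added. In the co-culture the inducing H69 cells sat on the porous membrane of a transwell insert, so that soluble products could cross while the cells stayed apart. Each partner type is represented by 1 cell line. According to the culture methods, MRC5 cells were kept in MEM and SCLC lines in RPMI, and the medium of the shared wells is not given in the sources used here, so an effect of the partner and an effect of the medium cannot be told apart. The replicates were prepared in parallel and nothing states that they are separate cultures, so p-values measure only the spread between these samples, which may be technical.

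Lung fibroblasts lay down and cross-link collagen and elastin, and they can take on a contractile myofibroblast state driven by TGF-β and by the co-activator myocardin, or an inflammatory state marked by chemokine and cytokine expression. They also take up and convert retinoids, the vitamin A derivatives that act through nuclear receptors, and they shape the heparan sulfate chains that hold growth factors at the cell surface. NE SCLC lines such as H69 grow as floating aggregates and secrete peptides and amines, and SCLC cells of this subtype are described as poor in mesenchymal and inflammatory signals.

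Library totals ran from 18554505 to 18817195 counts in MRC5_Mo and from 18587957 to 19106683 in MRC5_coH69, and 3 counts, the limit that a count of 0 allows, corresponded to 0.157 to 0.162 CPM, the usual depth-scaled unit of read counts, for counting error only. By the test defined below, 3.78% of all genes tested rose and 2.93% fell. All 17 listed fibroblast markers were tested, 6 rose and 1 fell (10 rises without the first MRC5_Mo library, 2 without the second or the third, 3 without the first or second MRC5_coH69 library), and they summed to 49500 to 53266 CPM in MRC5_Mo and 52900 to 55210 CPM in MRC5_coH69. Of 20 NE markers in the table, 8 had at most 3 counts in each of the 6 libraries, among them NCAM1, SCG3 and KIF1A, and STMN2 and ELAVL3 had none. Chromogranin B (CHGB) and synaptophysin (SYP) reached at most 8 and 7 counts. The NE markers summed to 51.0 to 53.5 CPM alone and 53.2 to 57.3 CPM with H69, a sum to which the calcium channel gene CACNA1A, also known outside NE cells, gave the most, and SCG5, which encodes a chaperone of secretory granules, was the only tested one of 9 that rose (0.42 log2 ± 0.10 SE); it did not pass without the second or the third MRC5_Mo library or without the first or the third MRC5_coH69 library. Epithelial markers summed to 31.5 to 35.8 and 33.6 to 37.8 CPM, with CDH1 at no more than 1 count. Endothelial markers, largely TEK, which rose by 0.29 ± 0.058 log2, and FLT1, summed to 57.3 to 63.4 and 68.4 to 72.1 CPM, while PECAM1, CDH5 and ERG were at 0 or 1 count. Blood cell markers, chiefly CD68, a lysosomal gene that fell by 0.27 ± 0.064 log2, summed to 74.5 to 83.2 and 58.6 to 71.4 CPM, with PTPRC at 0 or 1 count. The part of other cells' RNA in the results below was not tested beyond these values.

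The response to H69 was small. With edgeR's quasi-likelihood test, 71 genes (0.554% of those tested) were differentially expressed genes (DEGs), that is, genes with an adjusted p (Benjamini-Hochberg) under 0.05 that changed by more than 0.58 log2, or 1.49-fold, in either direction. Of these, 54 (0.421%) were higher and 17 (0.133%) lower with H69. Without the limit on the fold change, 859 genes (6.70%) passed the test, 484 (3.78%) higher and 375 (2.93%) lower. For the markers above and in all that follows, a gene "rose" or "fell" if it passed that test. The median absolute log2 fold change of these 859 genes was 0.26, a 1.20-fold change, with quartiles of 0.20 and 0.36, and 9 changed by more than 2-fold.

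The 2 lists rested unequally on single libraries. The number of DEGs lay between 48 and 85 when each library was left out in turn, whereas the 859 calls fell to 384 without the third MRC5_Mo library, 406 without the second, 495 without the first MRC5_coH69 library and 561 without the second. The values of all 3 MRC5_coH69 libraries lay outside the MRC5_Mo range in 3292 genes (25.7%), 67 DEGs among them. Of the DEGs, 26 averaged under 3 CPM and 8 over 100 CPM. Just inside the limit on the fold change lay RHOF (0.58 log2), COL4A1 (0.58) and GPRC5B (0.59), and just outside it DRD1 (-0.57), SLC41A2 (0.56) and ITPR2 (0.56).

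**Figure D1:**
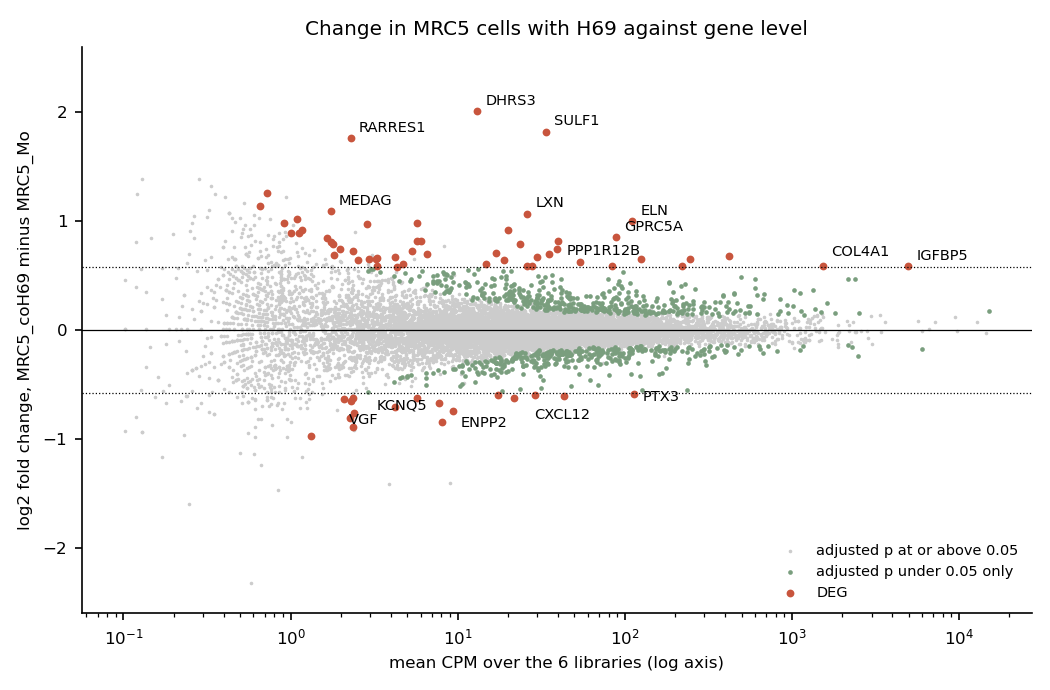
Log2 fold change of each tested gene (MRC5_coH69 minus MRC5_Mo, vertical axis) against its mean level in CPM over the 6 libraries (horizontal log axis); red points are DEGs, green points passed the test only, dotted lines mark 0.58 and -0.58, and 35 genes lie outside the plotted range, 1 of them a DEG. DHRS3, SULF1 and RARRES1 stand apart above the rest, and the most abundant DEGs, COL4A1 and IGFBP5, sit at the limit.

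Genes tied to retinoids were among the strongest rises. DHRS3, which encodes a short-chain reductase that turns retinaldehyde back into retinol and is itself induced by retinoic acid, had 6.54, 4.07 and 4.95 CPM in the 3 MRC5_Mo libraries and 20.4, 21.1 and 21.2 CPM in the 3 MRC5_coH69 libraries. The groups did not overlap, and every library with H69 was above 3 times the highest library alone. The log2 fold change of DHRS3 was 2.01 ± 0.11 (SE, n = 3 per group), a 4.02-fold rise (edgeR adjusted p = 5.92e-12). DHRS3 lies at chr1:12567910-12631397 in the authors' build, GRCh38.p13.

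RARRES1, a retinoic acid receptor responder that encodes a membrane protein related to carboxypeptidase inhibitors, had 1.23, 1.17 and 0.722 CPM alone and 4.12, 2.46 and 4.05 CPM with H69 and rose by 1.76 ± 0.23 log2 (edgeR adjusted p = 1.48e-05). The groups did not overlap, although the second MRC5_coH69 library was well below the others. Its neighbour on chromosome 3, LXN, encodes latexin, an inhibitor of carboxypeptidases, and had 17.5, 17.8 and 15.3 CPM alone and 38.7, 34.7 and 32.9 CPM with H69 (1.07 ± 0.075 log2, edgeR adjusted p = 4.69e-10). LXN spans chr3:158666414-158672722 and RARRES1 chr3:158696892-158732944, so that 2 related genes that lie side by side rose together. GPRC5A, an orphan receptor first described as induced by retinoic acid, had 64.2, 61.7 and 62.6 CPM alone and 118, 111 and 111 CPM with H69, with the smallest SE of the 20 highest DEGs (0.85 ± 0.050 log2).

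Across the list of retinoid metabolism and target genes, 5 of 25 tested members rose and 2 fell, with a median log2 fold change of 0.10, against 0.00 over all genes tested. Beside DHRS3 and RARRES1 the members that rose were ALDH1A3, which makes retinoic acid from retinaldehyde (0.53 ± 0.15 log2), the transcription factor HOXA5 (0.43 ± 0.11) and the transglutaminase TGM2 (0.32 ± 0.046). The nuclear receptor NR2F2 fell by 0.17 log2 and the homeobox factor MEIS2 by 0.23 log2. The list's per-library medians, relative to the MRC5_Mo mean, overlapped, from -0.05 to 0.04 log2 alone and from 0.03 to 0.11 with H69. Its rises numbered 3 without the second or without the third MRC5_coH69 library, and its falls 0 without the first or the third MRC5_Mo library or the first MRC5_coH69 library, and 1 without the third MRC5_coH69 library. CYP1B1, a cytochrome P450 that oxidizes retinoids, steroids and aromatic hydrocarbons, went from 3.88, 3.81 and 3.82 CPM to 7.13, 6.8 and 8.81 CPM (0.98 ± 0.14 log2, edgeR adjusted p = 3.65e-05).

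SULF1 gave the smallest adjusted p of the comparison. It encodes a secreted endosulfatase that removes 6-O-sulfate groups from heparan sulfate and so changes which growth factors the chains bind. SULF1 had 16.4, 15.6 and 12.6 CPM alone and 56.3, 53.7 and 48.3 CPM with H69. The lowest library with H69 was nearly 3 times the highest library alone, and the log2 fold change was 1.82 ± 0.078 (edgeR adjusted p = 4.52e-14). Of the 26 tested genes that make, edit or carry heparan sulfate, 3 rose and 2 fell, with a median of 0.05 log2. The glypican GPC4 (0.42 ± 0.078 log2) and the syndecan SDC2 (0.25 ± 0.052) rose, while the 3-O-sulfotransferase HS3ST3A1 fell by 0.36 log2 and the syndecan SDC1 by 0.17 log2. The related sulfatase SULF2 (0.26 ± 0.14 log2, adjusted p = 0.298) and the chain-building EXT1 (0.10 ± 0.041) did not pass the test. The falls numbered 1 without the second or the third MRC5_Mo library or without the first or the third MRC5_coH69 library.

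**Figure D2:**
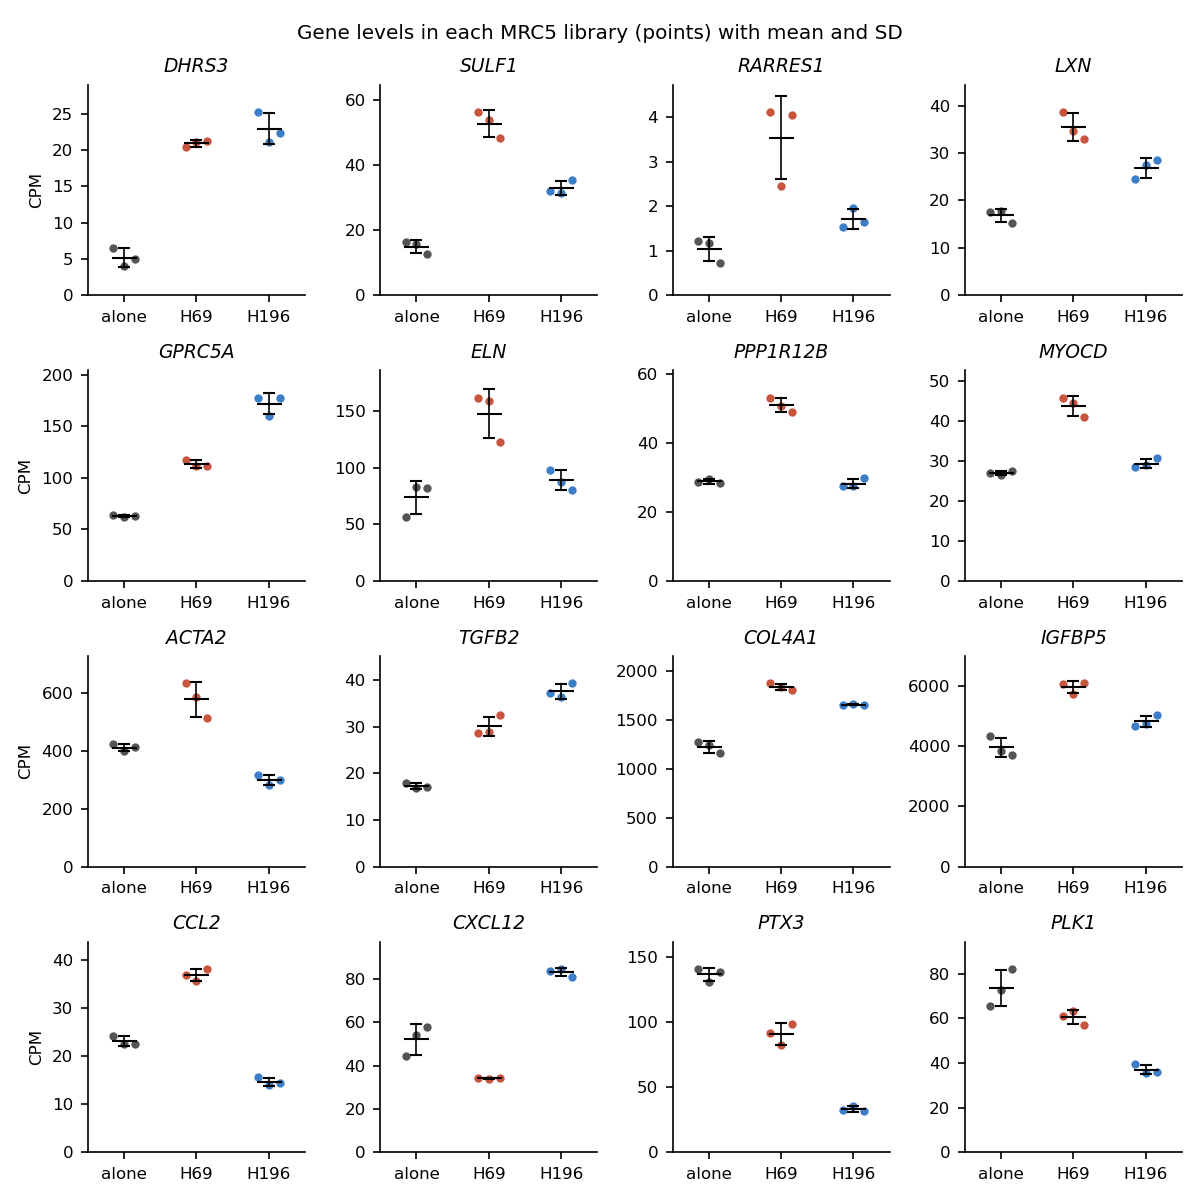
CPM (vertical axes, starting at 0) of 16 genes in each MRC5 library grown alone, with H69 or with H196 (points, 3 per group), with the mean and SD of each group as bars. DHRS3, SULF1, RARRES1, LXN, PPP1R12B and MYOCD separate the H69 libraries from those grown alone without overlap, and PPP1R12B and MYOCD are near the level of cells grown alone in the H196 co-culture.

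Genes of the contractile and smooth muscle program rose, though by less. All 22 tested members of this list had a fold change above 0, 10 of them rose and 0 fell, and the median was 0.22 log2. Medians over the list were -0.005 to 0.01 log2 in the MRC5_Mo libraries and 0.14 to 0.24 in the MRC5_coH69 libraries, relative to the MRC5_Mo mean. MYOCD, the myocardin gene whose product drives smooth muscle transcription with serum response factor, had 26.9, 26.4 and 27.4 CPM alone and 45.7, 44.4 and 40.9 CPM with H69 (0.70 ± 0.058 log2, edgeR adjusted p = 1.05e-08). ACTA2, smooth muscle α-actin, had 423, 399 and 412 CPM alone and 632, 587 and 512 CPM with H69 (0.49 ± 0.057 log2). In both genes the groups did not overlap and the third MRC5_coH69 library was the lowest of its group.

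Further members that rose were the thin-filament genes TPM1 (0.34 log2), CNN1 (0.31), CALD1 (0.22), LMOD1 (0.26) and TAGLN (0.16), the Z-disc and stress-fiber gene SYNPO2 (0.31), the collagen receptor ITGA11 (0.22), whose groups overlapped, and MYH11 (0.89). MYH11, smooth muscle myosin heavy chain, was at 0.817, 0.559 and 0.722 CPM alone and 1.58, 1.2 and 1.13 CPM with H69, and it did not pass in 13 of 16 alternative analyses. Without the second MRC5_Mo library 6 members of the list rose. Outside the list, PPP1R12B, a regulatory subunit of myosin phosphatase, had 28.6, 29.5 and 28.4 CPM alone and 53.1, 50.8 and 49.1 CPM with H69 (0.82 ± 0.055 log2, edgeR adjusted p = 2.76e-10). PPP1R14A, an inhibitor of the same phosphatase that was picked after its values were seen, rose by 0.65 ± 0.18 log2, from 2.35, 1.42 and 2.12 CPM to 2.7, 3.19 and 3.33 CPM.

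Extracellular matrix genes rose in several groups. Among elastic fiber and cross-linking genes 9 of 25 rose and 0 fell (median 0.12 log2), among small proteoglycans and matricellular proteins 7 of 22 rose and 0 fell (0.14), and among collagen chains 6 of 25 rose and 0 fell (0.07). ELN, which encodes tropoelastin, had 56.9, 83 and 82.1 CPM alone and 162, 159 and 123 CPM with H69. It doubled (1.0 ± 0.10 log2, edgeR adjusted p = 2.44e-07), with the first MRC5_Mo library the lowest and the third MRC5_coH69 library the lowest of its group, yet without overlap.

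Of the cross-linking enzymes, the lysyl oxidases LOX (0.47 ± 0.044 log2) and LOXL2 (0.37 ± 0.041) and the lysyl hydroxylase PLOD2 (0.43 ± 0.047) rose, with LTBP3 (0.32), FBLN5 (0.18) and FBN2 (0.18) of the microfibril group. The count of 9 was 5 without the third MRC5_Mo library and 5 without the first MRC5_coH69 library. Among proteoglycans and matricellular proteins, lumican (LUM, 0.42 ± 0.054 log2), fibromodulin (FMOD, 0.49 ± 0.082), PODN (0.50 ± 0.091), THBS2 (0.38 ± 0.067) and CCN4 (0.71 ± 0.094) rose. ACAN, aggrecan, rose by 0.74 ± 0.21 log2 from 1.38, 1.47 and 1.6 CPM to 2.75, 2.93 and 1.79 CPM.

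The basement membrane collagens COL4A1 and COL4A2 gave the smallest adjusted p of the collagen list. COL4A1 had 1282, 1241 and 1161 CPM alone and 1877, 1838 and 1811 CPM with H69 (0.58 ± 0.041 log2, edgeR adjusted p = 4.69e-10). COL4A2 had 1863, 1830.1 and 1736 CPM alone and 2516, 2528 and 2458 CPM with H69 (0.47 ± 0.040 log2). The 2 genes are transcribed away from each other from a shared region on chromosome 13. Their RefSeq promoter windows, 250 bases before to 50 after the start, overlap by 226 bases, and the COL4A1 window is shown because both genes it serves rose. It is chr13:110307108-110307407 of GRCh38.p14, minus strand, with the CCAAT box in capitals, here read on the other strand as its reverse complement.
COL4A1: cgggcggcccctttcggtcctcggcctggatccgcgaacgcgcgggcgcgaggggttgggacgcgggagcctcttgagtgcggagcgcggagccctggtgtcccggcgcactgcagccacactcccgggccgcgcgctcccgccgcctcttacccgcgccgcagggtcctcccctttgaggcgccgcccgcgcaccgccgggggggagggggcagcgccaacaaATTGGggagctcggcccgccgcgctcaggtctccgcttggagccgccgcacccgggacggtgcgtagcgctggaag

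Fibrillar chains moved less. COL1A1, the most abundant of these, had 14758, 14129 and 13612 CPM alone and 16556, 16179 and 15301 CPM with H69 (0.18 ± 0.043 log2), and COL5A1 (0.28), COL5A2 (0.23) and COL11A1 (0.18) rose as well. COL1A2 (0.12 ± 0.044 log2, adjusted p = 0.102) and COL3A1 (0.13 ± 0.051, adjusted p = 0.141) did not pass. Without the first MRC5_Mo library 10 collagen chains rose, and without the third MRC5_Mo or the first MRC5_coH69 library 4 did. The collagen list's per-library medians, relative to the MRC5_Mo mean, overlapped, from -0.06 to 0.08 log2 alone and from 0.07 to 0.11 with H69. Of the metalloproteinases and their inhibitors 4 of 24 rose, ADAMTS5, ADAMTS12, ADAMTS2 and TIMP3 (0.23 to 0.32 log2), and MMP15 fell by 0.42 log2, a call lost without any 1 of the 6 libraries other than the first of MRC5_Mo, with DESeq2, with limma on log2(FPKM + 0.1) and with a replicate block. ITGA1, a collagen-binding integrin subunit outside these lists, rose by 0.66 ± 0.050 log2, from 207, 189 and 175 CPM to 309, 298 and 291 CPM. CRISPLD2, a secreted protein made by lung mesenchyme and listed below among glucocorticoid targets, rose by 0.66 ± 0.046 log2, from 101, 95 and 93.4 CPM to 157, 151 and 148 CPM.

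Among growth factor systems, genes of the insulin-like growth factor (IGF) axis rose. Of 16 tested members 9 rose and 1 fell, with a median of 0.22 log2 and list medians of 0.19 to 0.25 in the 3 libraries with H69. IGFBP5, a secreted IGF-binding protein and the most abundant DEG, had 4325, 3829 and 3703 CPM alone and 6043, 5716 and 6075 CPM with H69 (0.59 ± 0.049 log2). IGFBP3 had 293, 337 and 347 CPM alone and 519, 495 and 548 CPM with H69 (0.68 ± 0.054 log2), and IGFBP6 (0.53), IGFBP7 (0.38) and IGFBP4 (0.19) rose with them. The ligand IGF2 rose by 0.59 ± 0.058 log2, the receptor IGF1R by 0.25 ± 0.049, and PAPPA, the protease that frees IGF from IGFBP4, by 0.25 ± 0.054. STC1, whose product inhibits PAPPA, fell by 0.22 log2, while the related STC2 rose by 0.20 ± 0.042. The fall of STC1 did not pass without the second or the third MRC5_Mo library or without any 1 of the MRC5_coH69 libraries.

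Of the TGF-β targets and feedback genes 8 of 24 rose and 0 fell (median 0.17 log2). The ligand TGFB2 had 18, 16.8 and 17.1 CPM alone and 28.8, 29 and 32.5 CPM with H69, without overlap (0.80 ± 0.067 log2, edgeR adjusted p = 1.28e-08). The receptor TGFBR1 (0.31 ± 0.055 log2), the target TGFBI (0.47 ± 0.041), the oxidase NOX4 (0.67 ± 0.14) and the feedback genes SKIL (0.49 ± 0.063) and SMAD7 (0.28 ± 0.070) rose, with JUNB (0.20) and CCN1 (0.15). CCN2 (0.06 ± 0.040 log2), a classical target, did not pass the test. In the BMP and GDF list 6 of 29 rose and 2 fell (median 0.12 log2). BMP2 rose by 0.53 ± 0.12 log2 and SMAD9 by 0.35 ± 0.071, while the activin and BMP antagonist FST had 262, 278 and 305 CPM alone and 185, 186 and 205 CPM with H69 and fell by 0.55 ± 0.053 log2. GDF5 fell by 0.21 ± 0.063 log2. Without any 1 MRC5_Mo library, or without the first or second MRC5_coH69 library, 1 member of this list fell.

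Of the fibroblast growth factor genes 1 of 25 rose and 2 fell, where 3.78% of all genes tested rose and 2.93% fell. FGF5 had 243, 277 and 269 CPM alone and 221, 225 and 211 CPM with H69 and fell by 0.27 ± 0.049 log2, SPRY2, a feedback inhibitor of receptor tyrosine kinases, had 35.1, 36.9 and 39.5 CPM alone and 26, 26.6 and 24.8 CPM with H69 and fell by 0.53 ± 0.065 log2, and FGF2 rose by 0.18 ± 0.052 log2, a call lost when any 1 of the 6 libraries was left out. FGF7 differed by -0.01 ± 0.065 log2 (adjusted p = 0.973). In the Wnt list 2 of 30 rose, WNT5A (0.38 ± 0.044 log2) and the receptor FZD4 (0.33 ± 0.073), and TNFRSF19 fell by 0.22 log2, though not without the second MRC5_Mo library or the first or second MRC5_coH69 library. In the hedgehog list GLI2 and FOXF1 rose by 0.19 and 0.18 log2 and 0 of 14 fell, and of 16 Notch genes 0 rose and 0 fell. The hedgehog rises numbered 0 or 1 when any 1 of the 6 libraries was left out, and 1 Notch gene rose without the third MRC5_coH69 library.

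**Figure D3:**
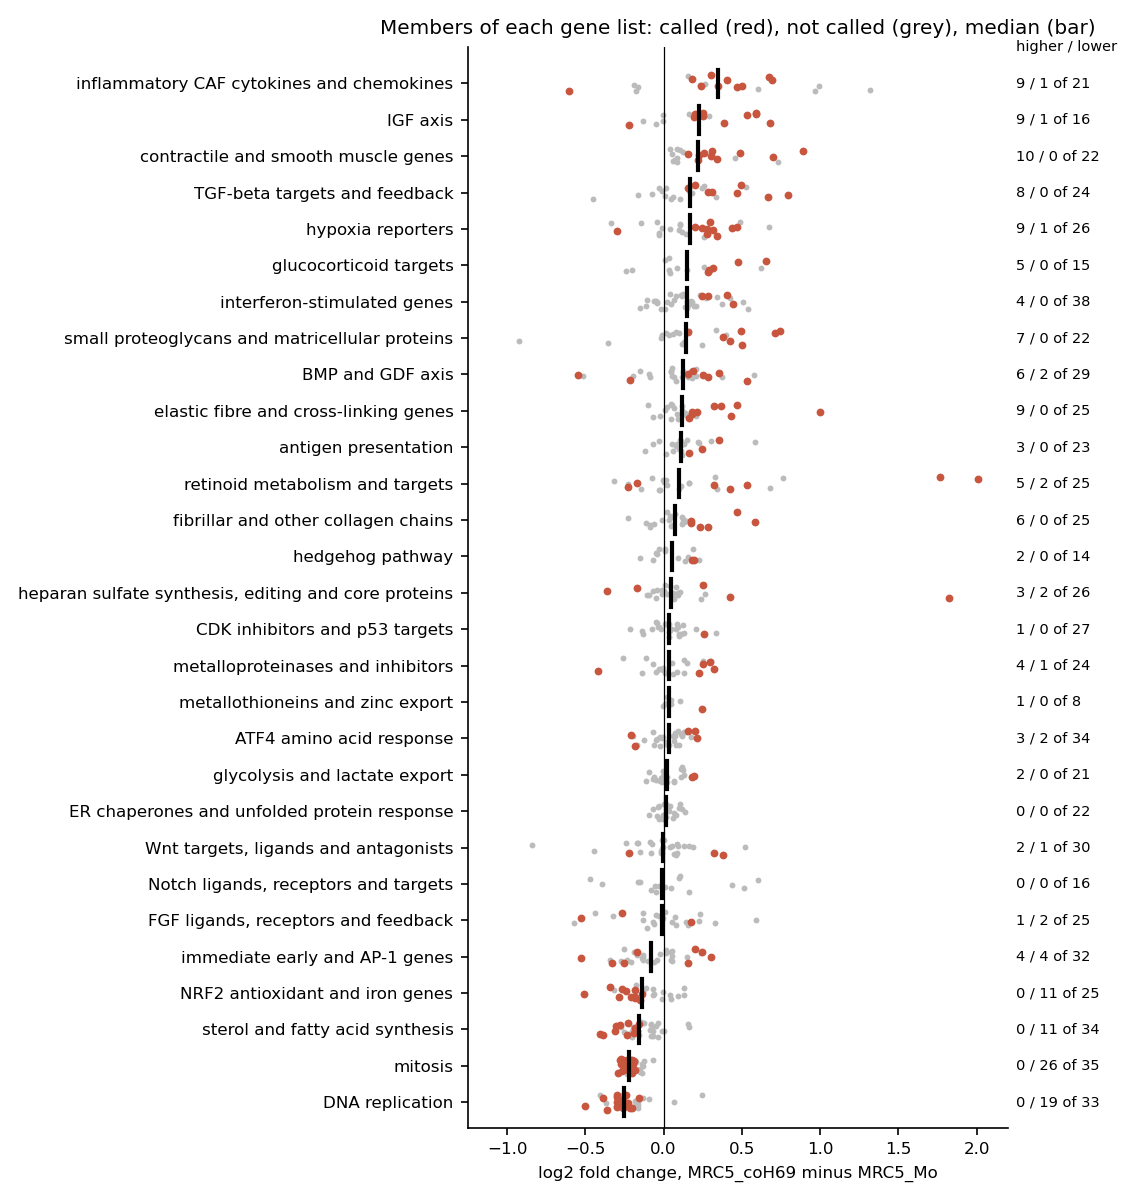
Log2 fold change (MRC5_coH69 minus MRC5_Mo, horizontal axis) of the tested members of 29 gene lists (points, red where the adjusted p was under 0.05), with the list median as a black bar and the numbers called higher and lower at the right. Inflammatory CAF genes have the highest median, 0.35, and DNA replication the lowest, -0.25.

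Inflammatory CAF cytokines and chemokines had the highest list median, 0.35 log2, with 9 of 21 members that rose and 1 that fell. CCL2, which attracts monocytes, had 24.3, 22.6 and 22.5 CPM alone and 37, 35.7 and 38.1 CPM with H69 (0.68 ± 0.060 log2, edgeR adjusted p = 2.69e-08). CXCL12, the ligand of CXCR4, moved the other way, from 44.3, 54.1 and 57.9 CPM to 34.5, 33.9 and 34.3 CPM, and fell by 0.61 ± 0.069 log2 (edgeR adjusted p = 1.96e-06). Neither gene's groups overlapped. ICAM1 (0.47 ± 0.056 log2), the prostaglandin E synthase PTGES (0.50 ± 0.13), IL32 (0.35 ± 0.064), LIF (0.30 ± 0.056) and the NF-κB feedback genes TNFAIP3 (0.40 ± 0.077) and NFKBIA (0.24 ± 0.061) rose. CXCL8 rose by 0.69 ± 0.20 log2 but stayed under 3 CPM in each library, and IL6 (0.27 ± 0.14 log2, adjusted p = 0.301) did not pass. Without the third MRC5_Mo library 5 members rose.

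Of the interferon-stimulated genes 4 of 38 rose and 0 fell (median 0.15 log2). They were the transcription factor IRF1, with 27.5, 28.1 and 23.4 CPM alone and 36.5, 35.3 and 35.8 CPM with H69 (0.45 ± 0.064 log2), the guanylate-binding GTPases GBP2 (0.41 ± 0.068) and GBP1 (0.25 ± 0.046), and PARP14 (0.28 ± 0.069). Without the second MRC5_coH196 library 8 rose and without the first MRC5_Mo library 7. In the antigen presentation list 3 of 23 rose, the immunoproteasome subunit PSMB9 (0.36 ± 0.10 log2), the peptide transporter TAP1 (0.24 ± 0.054) and HLA-E (0.16 ± 0.042), a gene that shares sequence with other HLA genes. This count ranged from 0, without the third MRC5_Mo or the first MRC5_coH69 library, to 5, without the first MRC5_Mo or the third MRC5_coH69 library, and it was 1 without the second library of either group. CD74, the invariant chain of class II molecules, differed by 0.13 ± 0.27 log2 (adjusted p = 0.84). VSIR, the gene of the inhibitory checkpoint protein VISTA, had 14.6, 12 and 14.9 CPM alone and 27.3, 26.8 and 24.5 CPM with H69 and rose by 0.92 ± 0.078 log2 (edgeR adjusted p = 1.41e-08).

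Cell cycle genes fell together by small amounts. In the mitosis list 26 of 35 tested members fell and 0 rose, every member had a fold change below 0, and the median was -0.22 log2. In the DNA replication list 19 of 33 fell and 0 rose, with a median of -0.25 log2. CDC20, which activates the anaphase-promoting complex, had 102, 110.3 and 126 CPM alone and 98.2, 91.2 and 86.5 CPM with H69 and fell by 0.29 ± 0.060 log2. PLK1, a kinase of mitotic entry, had 65.8, 72.7 and 82 CPM alone and 61.3, 63.5 and 57.2 CPM with H69 and fell by 0.28 ± 0.063 log2. In both genes all 3 libraries with H69 lay below the lowest library alone, and that lowest library was the first of MRC5_Mo.

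Cyclin B1 (CCNB1) fell by 0.27 ± 0.049 log2, Aurora kinase A (AURKA) by 0.25 ± 0.048, the spindle motor KIF11 by 0.26 ± 0.051 and the survivin gene BIRC5 by 0.26 ± 0.052. MKI67, the gene of the Ki-67 antigen, went from 161, 187 and 188 CPM to 162, 162 and 148 CPM and fell by 0.18 ± 0.055 log2, with overlapping groups. Of the replication genes, 7 MCM genes fell (-0.30 to -0.21 log2), of which 6 encode the helicase subunits MCM2, MCM3, MCM4, MCM5, MCM6 and MCM7, and GINS3 (-0.50 ± 0.12 log2), CDC45 (-0.39 ± 0.10) and the licensing factor CDT1 (-0.36 ± 0.095) had the largest falls. In bulk RNA, fewer dividing cells and less of these transcripts per cell cannot be told apart.

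The cell cycle counts depended on the library left out, although every list median stayed below 0. Medians per library, relative to the MRC5_Mo mean, were -0.11, 0.04 and 0.08 log2 in MRC5_Mo and -0.20, -0.23 and -0.21 in MRC5_coH69 for mitosis, and -0.11, 0.01 and 0.09 against -0.23, -0.23 and -0.28 for replication. The first MRC5_Mo library thus lay between the other libraries alone and those with H69. Without the third MRC5_Mo library 6 mitosis and 5 replication genes fell, without the second 9 and 9, without the first, second or the third MRC5_coH69 library 14, 10 and 13 mitosis genes, and without the first or the third MRC5_coH69 library 12 and 10 replication genes. List medians stayed within -0.26 to -0.19 log2 for mitosis and -0.30 to -0.21 for replication over these fits. Of the CDK inhibitors and p53 targets 1 of 27 rose, CDKN1B, which encodes an inhibitor of G1 kinases (0.26 ± 0.062 log2), and 0 fell. Over all genes tested 3.78% rose and 2.93% fell, so the rises in this list are near that share. That list had 0 rises without the third library of either group, 2 without the second MRC5_coH69 or MRC5_coH196 library, and 1 fall without the first MRC5_Mo library.

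The promoters of the mitosis genes that fell were searched on both strands for 2 motifs known from G2/M genes. These were the cell cycle homology region (CHR, searched as TTTGAA) and the CCAAT box (searched as CCAAT), and the letters of the pair can share at most 1 base. RefSeq promoter windows of GRCh38.p14 were matched for 21 of the 26 genes. Of their 23 windows of 300 bases, 13 (56.5%) held a CHR and 20 (87%) a CCAAT box, against 15.2% and 34.6% of all 35116 windows searched. Of 25 windows of 17 replication genes that fell, 4% held a CHR and 68% a CCAAT box. A CArG box (CC, a run of A or T, then GG) was in 0 of 13 windows, matched for 7 of the 10 contractile genes that rose, against 1.29% of all windows. For a motif this rare, 0 of 13 windows cannot show a lack of it. A retinoid receptor half-site (AGGTCA) was in 1 of 5 windows, matched for 3 of the 5 retinoid genes that rose, against 13.8% of all windows. Mitosis genes that did not fall were not searched as a set, so these shares do not show whether the motifs go with the fall. A match is a description of letters and not of a bound site. CDC20 and PLK1 are shown because both motifs lie close to their starts, with motifs of either strand in capitals. The windows are chr1:43358731-43359030, plus strand, for CDC20, and chr16:23678639-23678938, plus strand, for PLK1.
CDC20: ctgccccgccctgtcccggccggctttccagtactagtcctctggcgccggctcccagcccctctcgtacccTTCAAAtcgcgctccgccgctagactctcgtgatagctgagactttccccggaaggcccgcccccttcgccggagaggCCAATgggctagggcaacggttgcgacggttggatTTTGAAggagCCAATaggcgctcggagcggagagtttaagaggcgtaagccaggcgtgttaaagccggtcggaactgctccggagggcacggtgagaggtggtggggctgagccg
PLK1: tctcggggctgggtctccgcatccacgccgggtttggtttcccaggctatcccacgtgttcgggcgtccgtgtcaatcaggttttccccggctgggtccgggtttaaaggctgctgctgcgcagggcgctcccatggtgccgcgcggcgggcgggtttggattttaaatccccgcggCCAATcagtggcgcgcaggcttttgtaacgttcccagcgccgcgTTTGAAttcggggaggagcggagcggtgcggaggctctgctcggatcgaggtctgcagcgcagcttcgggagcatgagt
Counted from the start site, the CDC20 window holds a CHR at -178 and -65 and a CCAAT box at -100 and -55, and the PLK1 window a CHR at -29 and a CCAAT box at -73.

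**Figure D4:**
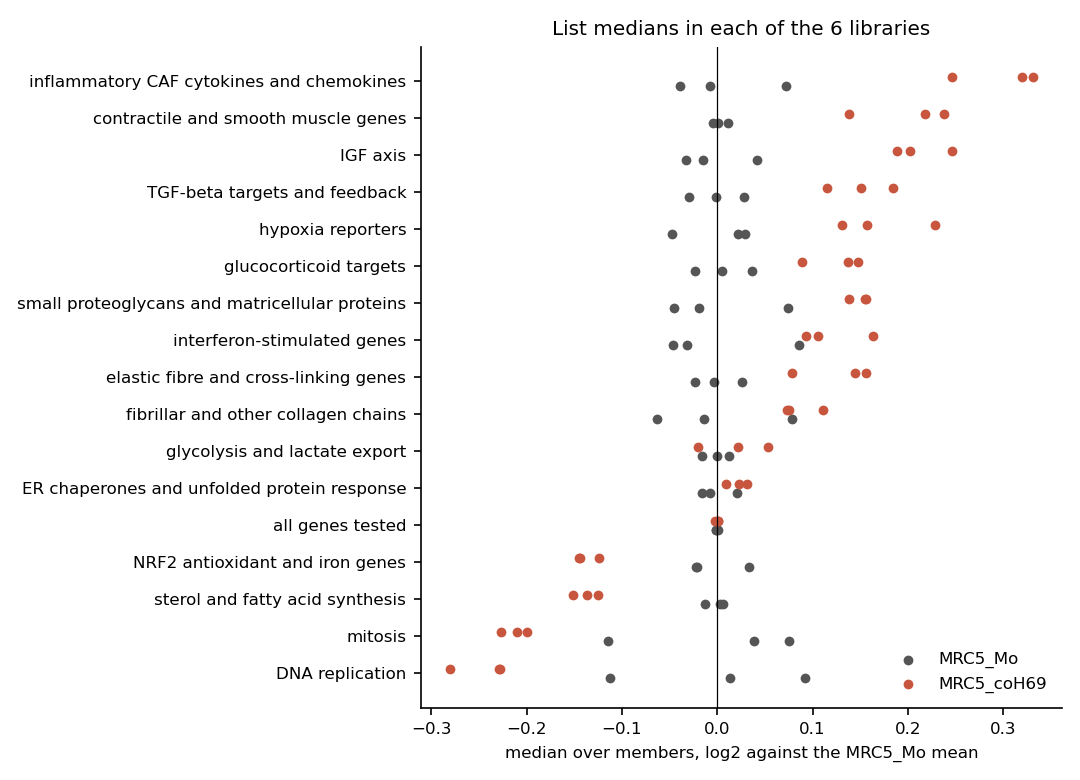
Median over the members of 16 gene lists and over all genes tested (horizontal axis, log2 of CPM relative to the MRC5_Mo mean, 0.5 CPM added) in each MRC5_Mo library (grey points) and each MRC5_coH69 library (red points). Contractile and IGF lists separate the groups widely, while the first MRC5_Mo library lies at -0.11 for both mitosis and DNA replication.

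Sterol and antioxidant genes fell as well. Of 34 genes of sterol and fatty acid synthesis and uptake 11 fell and 0 rose, with a median of -0.16 log2 and per-library medians of -0.01 to 0.01 alone and -0.15 to -0.13 with H69. MSMO1, a sterol methyl oxidase, had 37.3, 38.9 and 37.5 CPM alone and 32.3, 28.9 and 30.9 CPM with H69 and fell by 0.30 ± 0.065 log2 (edgeR adjusted p = 0.00443). TMEM97 fell by 0.39 ± 0.075 log2, ACAT2 by 0.31 ± 0.061 and HMGCS1 by 0.28 ± 0.069. Without the second MRC5_Mo library 5 members fell, without the third 6, and without the first or the second MRC5_coH69 library 7 each, and 1 rose without the first MRC5_Mo library.

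Among the NRF2 antioxidant and iron genes 11 of 25 fell and 0 rose (median -0.14 log2). Heme oxygenase 1 (HMOX1) had 37.3, 34.2 and 34 CPM alone and 27, 27 and 29.2 CPM with H69 and fell by 0.34 ± 0.072 log2, and the quinone reductase NQO1 had 371, 366 and 380.4 CPM alone and 298, 308 and 342 CPM with H69 and fell by 0.24 ± 0.046 log2. AKR1C1, which shares reads with near-identical family members and is therefore uncertain, fell by 0.51 ± 0.10 log2. The pentose phosphate genes PGD and TKT each fell by 0.18 log2, the transferrin receptor TFRC by 0.26 and the cystine carrier SLC7A11 by 0.21. Without the second or the third MRC5_Mo library 5 members fell, and without the first or the second MRC5_coH69 library 6, and 1 rose without the first MRC5_Mo library.

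Hypoxia reporters shifted slightly upward and glycolysis genes hardly at all. Of 26 hypoxia reporters 9 rose and 1 fell (median 0.17 log2). NDRG1 had 92.5, 88.6 and 91.5 CPM alone and 120, 121 and 128 CPM with H69 (0.44 ± 0.059 log2), and the angiogenic factor VEGFA had 69.5, 64.2 and 61.7 CPM alone and 78.2, 80.3 and 88.5 CPM with H69 (0.34 ± 0.062 log2). Neither gene's groups overlapped. KDM3A, EGLN1, P4HA1, BNIP3, BNIP3L and STC2 rose by 0.20 to 0.32 log2, LOX was the ninth member to rise, and the carbonic anhydrase CA12 fell by 0.30 ± 0.060 log2. Of 21 genes of glycolysis and lactate export 2 rose, LDHA (0.18 ± 0.039 log2) and the glucose transporter SLC2A1 (0.20 ± 0.055), and 0 fell, with a median of 0.02 log2. HK1 (-0.05 ± 0.045), HK2 (0.02 ± 0.060) and the lactate exporter SLC16A3 (0.11 ± 0.041, adjusted p = 0.0963) did not pass the test. Without the second or the third MRC5_Mo library, or the first or second MRC5_coH69 library, 1 glycolysis gene rose, and without the second MRC5_coH196 library 4 did.

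Stress and hormone lists moved unevenly, beside 3.78% of all genes tested that rose and 2.93% that fell. Of 22 endoplasmic reticulum chaperones and unfolded protein response genes 0 rose and 0 fell, and of 34 genes of the ATF4 amino acid response 3 rose and 2 fell. The ATF4 rises numbered 5 without the first MRC5_Mo library and 1 without the second, the third or the first MRC5_coH69 library, and its falls 0 without the second MRC5_Mo or the first or second MRC5_coH69 library and 1 without the third library of either group. Of 15 glucocorticoid targets 5 rose and 0 fell (median 0.15 log2), and 1 member fell without the first MRC5_Mo library. Those that rose were CRISPLD2 (0.66 ± 0.046 log2), the list's only DEG, KLF9 (0.47 ± 0.085), SGK1 (0.32 ± 0.060), ERRFI1 (0.29 ± 0.056) and CEBPD (0.29 ± 0.079). Outside the list NR3C2, the mineralocorticoid receptor gene, fell by 0.65 ± 0.19 log2 at 1.93, 1.41 and 2.05 CPM with H69, and missed the threshold in 8 of 17 alternative analyses, among them DESeq2, both limma fits and the replicate block. Of 32 immediate early genes 4 rose and 4 fell. These rises numbered 1 without the second or the third MRC5_Mo library or the third MRC5_coH69 library and 2 without the first or second MRC5_coH69 library, and the falls 7 without the first MRC5_Mo library and 2 without the second or the third. Of 8 metallothionein and zinc export genes 1 rose, MT2A (0.25 ± 0.051 log2).

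The 17 DEGs that fell included genes of secreted and surface signals. ENPP2, which encodes autotaxin, the enzyme that makes lysophosphatidic acid, had 12.3, 10.2 and 12.5 CPM alone and 6.77, 6.75 and 7.43 CPM with H69 and fell by 0.74 ± 0.12 log2 (edgeR adjusted p = 0.000188). VGF, a neuropeptide precursor, had 5.82, 5.29 and 4.64 CPM alone and 3.05, 3.19 and 3.38 CPM with H69 and fell by 0.71 ± 0.14 log2. The adhesion receptor ADGRG1 had 27.1, 25.9 and 26 CPM alone and 19, 16.7 and 15.6 CPM with H69 and fell by 0.62 ± 0.073 log2. In these 3 genes the groups did not overlap.

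The potassium channel KCNQ5 had 7.76, 10.9 and 10 CPM alone and 6.01, 6.12 and 5.84 CPM with H69 and fell by 0.67 ± 0.11 log2. PTX3 and GRPR were picked after their values were seen. PTX3, a secreted pattern recognition protein, was the most abundant DEG that fell, with 140.3, 131 and 138 CPM alone and 91.7, 82 and 98.3 CPM with H69 (-0.59 ± 0.055 log2). GRPR, the receptor of gastrin-releasing peptide, a peptide that SCLC cells are known to secrete, had 5.98, 7.57 and 7.28 CPM alone and 4.89, 4.71 and 3.95 CPM with H69 and fell by 0.62 ± 0.13 log2.

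Several DEGs rested on few reads or on reads that cannot be placed with certainty. The DEGs NUDT13, MAP2K6, ADIRF, LAT and GPR3 fell by 0.62 to 0.97 log2 at levels under 4 CPM and each missed the threshold in 5 to 8 of 17 alternative analyses. MEDAG (1.09 ± 0.23 log2) and GGT5 (0.97 ± 0.16) were also under 5 CPM and passed in all 17, while RUNX3, DNAJA4, ALPK3, CLSTN2 and SLC46A3, all under 3 CPM, missed it in 3 to 8. KIAA1755 (0.82 ± 0.13 log2) missed it in 2. BOLA2B, which has a near-identical copy, and COMMD3-BMI1, a read-through of 2 neighbouring genes, fell by 0.89 and 0.84 log2 and missed it in 7 and 5. The groups of BOLA2B and NUDT13 overlapped. Chosen after its values were seen, ATP5MF-PTCD1, another read-through, was at 0 counts in each MRC5_Mo library and in the third MRC5_coH69 library and at 0.713 and 1.41 CPM in the other two. HBD, a globin gene similar in sequence to its neighbours, had 4.6, 3.71 and 4.18 CPM alone and 8.3, 6.85 and 6.81 CPM with H69.

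Set beside the co-culture with H196, which shares the same MRC5_Mo libraries, named genes of the H69 response are described in 3 forms. The forms were not counted over all DEGs and do not cover every named gene. Most of these genes were named for their change with H69, and the same MRC5_coH69 libraries enter the tests of difference. In the first, both partners raised the gene and H69 did so more. SULF1 had 32, 31.4 and 35.5 CPM with H196, lower than with H69 (-0.68 ± 0.071 log2, edgeR adjusted p of the difference = 5.40e-09). ELN had 98.3, 88 and 80.8 CPM with H196 (a difference of -0.73 ± 0.10 log2) and RARRES1 1.53, 1.96 and 1.65 CPM (-1.05 ± 0.21 log2), and LXN, CYP1B1 and VSIR were lower with H196 than with H69 (-0.54 to -0.38 log2). Genes that rose with both partners without a shown difference fit none of the forms. DHRS3 had 25.2, 21.1 and 22.4 CPM with H196 and was not shown to differ between the partners (0.13 ± 0.087 log2, adjusted p of the difference = 0.173), nor was MEDAG (0.21 ± 0.19, adjusted p = 0.331).

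In the second form H196 left the gene near its level alone or moved it the other way. PPP1R12B had 27.4, 27.4 and 29.7 CPM with H196 (-0.86 ± 0.056 log2 against H69) and MYOCD 28.4, 28.9 and 30.6 CPM (-0.58 ± 0.058 log2). ACTA2 had 318, 282 and 300 CPM with H196, below the cells grown alone, and CNN1 70.1, 63.3 and 69 CPM, with differences of -0.94 ± 0.058 and -0.77 ± 0.059 log2 between the partners. With H196, 4 members of the contractile list rose and 12 fell, where 37.2% of all genes rose and 37.1% fell. CCL2 had 15.6, 14 and 14.5 CPM with H196 against a rise with H69 (-1.33 ± 0.066 log2), GBP2 6.19, 6.79 and 6.89 CPM (-1.84 ± 0.083 log2) and LIF 53.5, 45.1 and 48.5 CPM (-0.76 ± 0.058 log2). CXCL12 had 83.9, 84.5 and 80.9 CPM with H196 against a fall with H69 (1.28 ± 0.067 log2), as had KCNQ5 with 18.8, 17.4 and 17.3 CPM (1.57 ± 0.11 log2) and FGF5 with 358, 385 and 383 CPM (0.78 ± 0.048 log2).

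In the third form both partners moved the gene alike and H196 did so further. NDRG1 reached 2883, 2457 and 2978 CPM with H196, 4.50 ± 0.061 log2 above H69, and VEGFA and IGFBP3 were 3.50 ± 0.060 and 3.71 ± 0.058 log2 above. GPRC5A (0.60 ± 0.047 log2) and TGFB2 (0.32 ± 0.061) were also higher with H196 than with H69, and PTX3, at 32.4, 35.5 and 31.5 CPM with H196, was lower (-1.45 ± 0.063 log2). All 26 hypoxia reporters rose with H196, with a median of 2.59 log2. With H69 9 of them rose, 16 were not called and 1, CA12, fell, so this form does not hold for the whole list. The tests of difference passed for 72.3% of all genes between the 2 co-cultures.

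**Figure D5:**
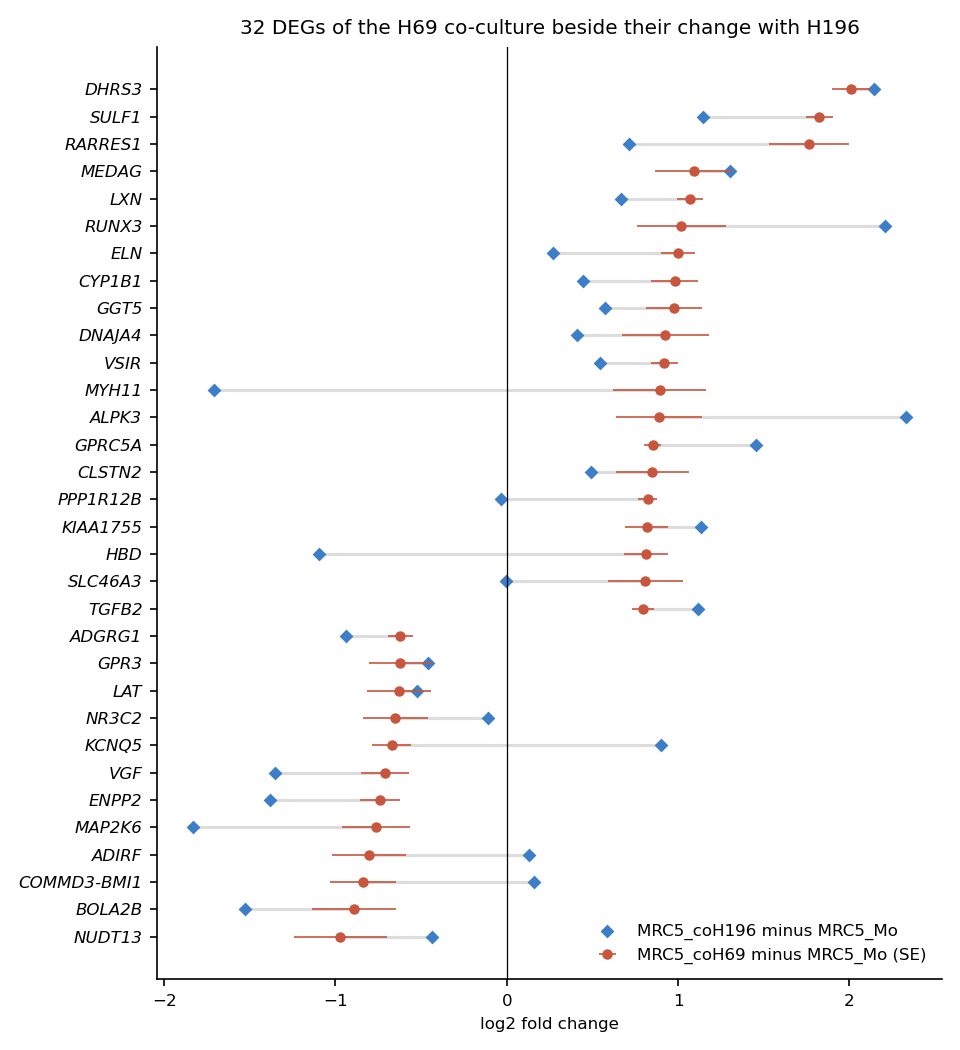
Log2 fold change against MRC5_Mo of the 20 highest and 12 lowest DEGs of at least 1 CPM in MRC5_coH69 (red points with SE) and of the same genes in MRC5_coH196 (blue diamonds, no error drawn), ordered by the change with H69. The diamonds lie on the other side of 0 for MYH11, HBD, KCNQ5, ADIRF and COMMD3-BMI1 and close to 0 for PPP1R12B and SLC46A3. The changes of ADIRF and COMMD3-BMI1 with H196 did not pass the test.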

How the data were processed

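Messenger RNA of MRC5 cells, captured with oligo(dT) beads, was sequenced by the authors. Reads were filtered with SOAPnuke, aligned with HISAT and Bowtie2 2.3.4.3 (HISAT2 2.1.0 is also listed) and quantified with RSEM 1.3.1 against GRCh38.p13, per the methods and the submitters' processing notes. The authors deposited expected counts and FPKM per gene and library, and 93.68% of the deposited expected counts were whole. The expected counts were rounded and tested, and the FPKM values served the alternatives with limma. In the same files 18 per-library columns (TPM and normalized counts) were not used, nor were the columns of the authors' own comparisons (fold changes, p-values and q-values), a second copy of the MRC5 table and the H196 tables.

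Genes passing edgeR's filterByExpr were fitted over all 9 MRC5 libraries with TMM factors and the quasi-likelihood test (edgeR 4.0.16, R 4.3.3), two-sided, with Benjamini-Hochberg adjustment over 12819 genes. An exact permutation test of 3 against 3 libraries cannot go below p = 0.1. CPM values of genes include the TMM factor, while sums over markers use library totals. Alternatives used limma 3.58.1, DESeq2 1.42.0, other filters, limits and thresholds, the 6 libraries alone, a replicate block and each library left out. The fits were also run on simulated data in which changed genes moved by at least 1 log2. That run does not bear on smaller changes, which most of the calls here were. The counts of called list members under each of the alternatives were added after seeing the data.

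The comparison and the gene lists were chosen with earlier results of these data known. Named genes are the 20 highest and 12 lowest DEGs of at least 1 CPM, the 10 genes of smallest adjusted p and list members that passed the test. List members named at values that missed the test, and other genes where stated, were picked after their values were seen. Transcript length and GC content, known for 97.7% of tested genes, moved the median log2 fold change of eighths of the genes between -0.02 and 0.03. Promoter windows come from RefSeq and Hallmark membership from the deposited table. Some members of the lists are not reported here by name.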

Additional observations from a re-analysis of the deposited data

Results flagged for a closer look

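Of the 20 highest and 12 lowest DEGs of at least 1 CPM, 7 had opposite signs of change with the 2 partners, and for each the difference between the co-cultures was itself tested in the same edgeR fit (adjusted over all genes). The co-cultures share the MRC5_Mo libraries, so the difference rests on the 3 libraries of each co-culture. The genes were picked for large changes in the same MRC5_coH69 libraries, so the difference is not independent of that choice and may be too large. With H196 the change against MRC5_Mo did not pass in PPP1R12B (-0.03 log2, edgeR adjusted p = 0.618) or COMMD3-BMI1 (0.16, edgeR adjusted p = 0.410). The same held for ADIRF (0.13, edgeR adjusted p = 0.552) and SLC46A3 (-0.006, edgeR adjusted p = 0.983). The signs of these changes with H196 are therefore not established.

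PPP1R12B was lower with H196 than with H69, with a difference of -0.86 ± 0.056 log2 (edgeR adjusted p = 9.33e-13). It rose with H69 and was -0.03 log2 from the cells grown alone with H196. MYH11 differed by -2.6 ± 0.37 log2 (adjusted p = 7.63e-07), at 0.17, 0.23 and 0.228 CPM with H196. HBD, whose reads may be shared with other globin genes, differed by -1.91 ± 0.15 log2 (adjusted p = 4.02e-11), at 1.87, 1.78 and 2.16 CPM with H196.

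KCNQ5 was higher with H196 than with H69 by 1.57 ± 0.11 log2 (edgeR adjusted p = 1.41e-12), with 18.8, 17.4 and 17.3 CPM with H196, above every library grown alone. COMMD3-BMI1, a read-through gene whose reads cannot be told from those of its parts, differed by 1.0 ± 0.19 log2 (adjusted p = 5.20e-05). ADIRF differed by 0.94 ± 0.22 log2 (adjusted p = 0.000478), at 3.47, 2.59 and 3.42 CPM with H196. SLC46A3, a lysosomal carrier, differed by -0.81 ± 0.23 log2 (adjusted p = 0.00236), at 1.19, 1.38 and 1.2 CPM with H196.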

How the results depend on the processing

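Against 71 DEGs (54 higher, 17 lower), DESeq2 gave 44 (35 and 9), limma on log2(FPKM + 1) 18 (17 and 1), a log2 limit of 1 gave 9 (9 and 0), and an adjusted p under 0.01 gave 45, 9 of them lower. Against 859 genes past an adjusted p of 0.05 (484 higher, 375 lower), limma gave 404 (228 and 176) with 1 FPKM added and 386 (225 and 161) with 0.1 added, and an adjusted p under 0.01 gave 386 (254 and 132). Leaving out each library in turn gave 48 to 85 DEGs (36 to 66 higher, 12 to 19 lower) and 384 to 1015 genes past the adjusted p (257 to 547 higher, 127 to 486 lower). The cause of these shifts was not tested. Mitosis genes that fell numbered 17 with DESeq2 and 6 with limma, against 26.

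Same-numbered MRC5_Mo and MRC5_coH69 libraries did not deviate together (r = 0.036, 0.081 and -0.031 across genes). No pairing by number was seen, though 3 libraries per group cannot exclude it. With the replicate number as a block there were 70 DEGs (53 higher, 17 lower) and 769 genes past the adjusted p (452 higher, 317 lower).

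Of the 37 genes whose fold change was followed, 22 passed in all 17 alternatives and none changed direction. The difference between the co-cultures changed sign in DHRS3 (-0.00762 and -0.00839 with 1 and 0.1 FPKM added), LAT (-0.0606 and -0.105) and GPR3 (-0.00624 and -0.0195, and from -0.048 without the first MRC5_coH196 library to 0.27 without the third), none of which passed the test of that difference. Genes under about 1 CPM rest on few reads, and 3 libraries per group limit what small changes can be called.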

Other observations

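Hallmark gene sets, read as counts and medians over tested members, gave a wider view of the same small shifts. Of 200 E2F target genes 57 fell and 1 rose (median -0.14 log2), and of 198 G2/M checkpoint genes 59 fell and 5 rose (median -0.12). MYC targets V2, a set rich in ribosome assembly factors, had 11 of 58 members that fell and 0 that rose (median -0.13), and MYC targets V1 had 25 of 200 that fell and 1 that rose (median -0.07). Over all genes tested 2.93% fell and 3.78% rose.

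Of 191 genes of the epithelial to mesenchymal transition set, mostly matrix and adhesion genes, 48 rose and 15 fell (median 0.08 log2). Interferon gamma response genes rose in 19 of 159 cases and fell in 2 (median 0.08), interferon alpha response genes in 9 of 86 cases and 0 (median 0.08), and TNF targets through NF-κB in 26 of 175 cases and 9 (median 0.05). Myogenesis genes rose in 16 of 146 cases and fell in 6 (median 0.06). Oxidative phosphorylation had 2 rises and 3 falls in 199 genes (median -0.04), with 53 members above 0. DNA repair had 2 rises and 10 falls in 148 genes (median -0.04), with 44 members above 0. Over all genes tested 6400 of 12819 were above 0. Both sets thus leaned slightly downward in sign and median, though few members of oxidative phosphorylation were called.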
